A study of Mus musculus with 3 samples.

Results

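The genes described here code for fatty acid metabolism and lipid carriage in the mouse retina. They were chosen by name: the intracellular carriers (Fabp), acyl-CoA synthetases (Acsl, Acss), the carnitine shuttle (Cpt), the oxidation enzymes of mitochondria and peroxisomes (Acad, Hadh, Acaa, Acox), the enzymes of synthesis, elongation and desaturation (Fasn, Elovl, Fads, Scd), the apolipoproteins A to D, and Lpl, Lipe and Pltp. The choice gave 44 of the 8251 genes that could be named on the array, measured by 60 of the 10833 probe sets with a single gene symbol. Where a gene had several probe sets, the one with a plain suffix and then the highest mean was used. Acox genes, of the first step of peroxisomal oxidation, were not analysed here.

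The animals were Rp1-/- mice of mixed 129/SvEv and C57BL/6 origin, 21 days old (P21), with neural retinas taken from 1 to 2 pm. Each total RNA sample came from pooled retinas of 3 to 4 mice and was measured on 1 of 3 Affymetrix U74Av2 arrays, here called replicates 1, 2 and 3. All 3 pools carry the same deletion and form 1 group, no wild-type retina was analysed here, and Rp1 itself was not analysed here. No difference between conditions was therefore tested, and what follows gives levels and the spread between 3 pools.

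Inside a cell, fatty acids are bound by small carrier proteins, are activated to acyl-CoA, and are then burnt in mitochondria and peroxisomes or built into membranes. Cpt1a and Cpt2 carry the long chains into mitochondria, where dehydrogenases, hydratases and thiolases shorten them in cycles. Photoreceptor outer segments are rich in docosahexaenoic acid, a polyunsaturated fatty acid that elongases and desaturases make from dietary precursors. Apolipoproteins carry lipid between cells in lipoprotein particles, and most of those studied here are best known from liver and intestine.

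Values are signals in the linear intensity units of the deposited table after a common scaling of the arrays, given in the order of replicates 1, 2 and 3. A gene was called above background on an array where its signal exceeded the 95th percentile of 19 controls of bacterial and yeast origin, a limit of 160.3, 80.7 and 107.1. The median of these controls was 44.5, 19.0 and 21.1, so the array of replicate 1 had the highest background, and a low gene with its highest signal there is to be read beside that value. Levels are compared within a gene only, since each probe set has its own response. Each mean and SD rests on 3 arrays, which sets its precision. All 7 measured rod markers of 8 listed were above background on all arrays, with summed signals of 100339, 144889 and 98428. Of these, 5 were highest in replicate 2, while Prph2 (4470, 1941 and 1690) and Nrl (1468, 496 and 706) were highest in replicate 1. All 6 lens markers were above background on all arrays too, with sums of 128047, 189531 and 133829, in samples labelled as neural retina. Pigment cell markers summed to 1827, 12611 and 8241 and red cell markers to 5535, 31736 and 8295. In whole tissue, fewer cells of a type cannot be told apart from less RNA per cell.

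Most enzymes of fatty acid synthesis and oxidation were above background in every pool. At the probe sets used, no apolipoprotein of types A to D was above it throughout. Outside the name rule, Apoe was above background in every pool at 6581, 9232 and 5774.5, Apom in replicate 1 alone and Apoh on no array. Of the 44 genes, 24 exceeded the limit in every pool, as did 60.7% of all genes. A further 10 were above it on 1 or 2 arrays, against 23.6% of all genes, and 10 on no array, against 15.7%. Enzymes made up most of the detected genes. All 3 genes of lipases and transfer, both of the carnitine shuttle, both peroxisomal thiolases and 8 of 9 genes of synthesis, elongation and desaturation were above background throughout. For mitochondrial oxidation the count was 5 of 8, for acyl-CoA synthetases 2 of 3, for intracellular carriers 2 of 8 and for apolipoproteins 0 of 9. The last counts depend on the limit. With the median of the controls in its place, 5 carriers and 5 apolipoproteins were above it throughout. So were 35 of all 44 members and 7081 of all 8251 genes.

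**Figure D1:**
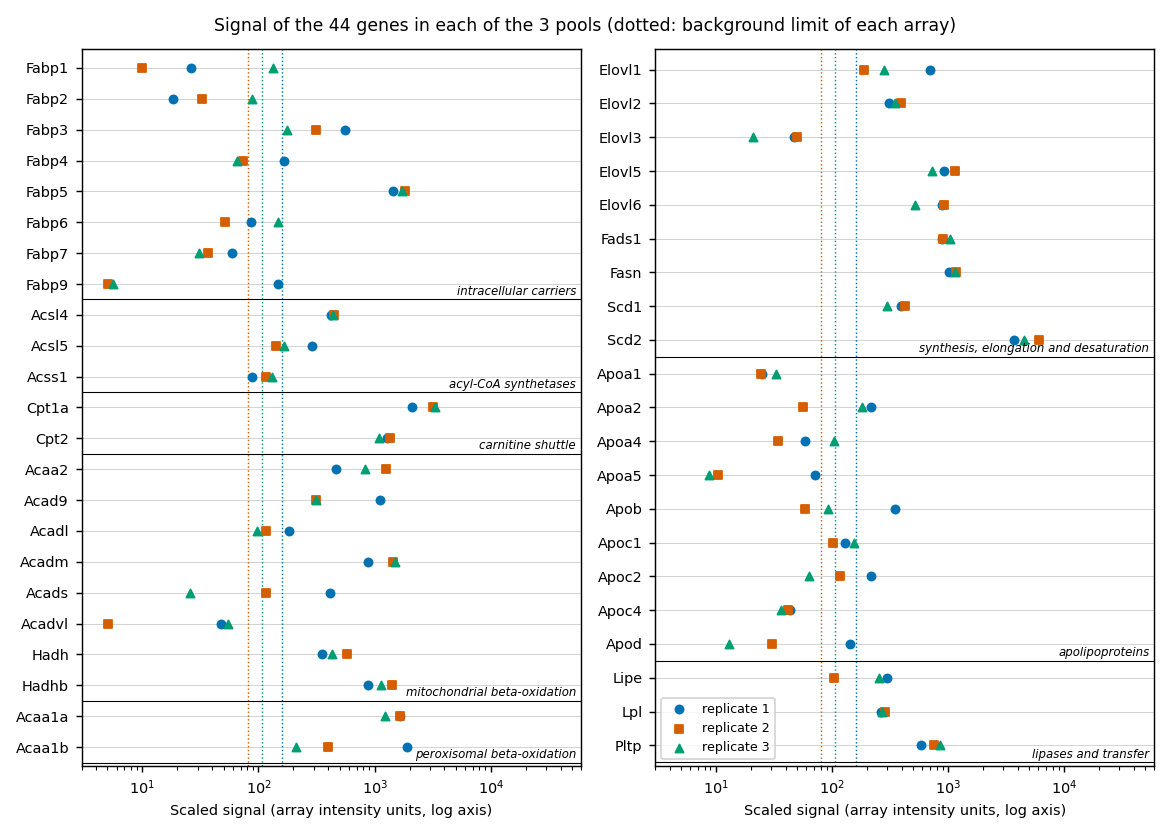
Scaled signal of each of the 44 genes (log axis, array intensity units) in replicates 1, 2 and 3, grouped by role and in alphabetical order within a role, with the background limit of each array as a dotted line. Most apolipoproteins and most Fabp genes lie near or below the limits of 80.7 to 160.3, while the enzymes of synthesis other than Elovl3 lie above them in every pool.

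The carriers that hold fatty acids inside the cell were represented by Fabp5 and Fabp3. Fabp5, the epidermal-type carrier, gave 1446, 1815 and 1707, a mean of 1656 ± 190 (SD, n = 3), and its pools lay within 1.25-fold of each other. The Fabp5 range was 1.71-fold with arrays brought to 1 median and 1.09-fold with quantile normalization. Fabp3, the heart-type carrier, gave 558, 310 and 177, a mean of 348 ± 193, with replicate 1 at 3.16 times replicate 3. The 6 measured skeletal muscle markers summed to 1222, 792 and 727, with Mylpf the 1 above background on all arrays, and they did not run one way. Mb, myoglobin, gave 449, 72.8 and 14.6, while Acta1, an actin, gave 56.7, 186.4 and 206.1 and Ckm, muscle creatine kinase, 71.3, 298.6 and 265.7. Their part in the Fabp3 difference was not tested.

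The remaining Fabp carriers were near or below background. Fabp4, the carrier of fat cells, gave 165.0, 73.7 and 65.5, at the limit of 160.3 in replicate 1 and below it in the others, so no fold is given. The 4 measured fat cell markers summed to 1595, 1098 and 1262. Lep, leptin, was the 1 above background on all arrays, at 1409, 858 and 898, and Adipoq, which defines fat cells, was below it on every array at 36.6, 58.0 and 86.0. The 6 measured endothelial markers summed to 3009, 1605 and 2027, and the 4 above background on all arrays were each highest in replicate 1. The part of fat or endothelial cells in the Fabp4 signal was not tested. Fabp1 (liver) reached 133.6 and Fabp6 (ileum, bile acids) 146.5 in replicate 3 alone, and were at 26.3 and 10.02, and at 85.9 and 51.0, in replicates 1 and 2. Another Fabp1 probe set and another of Fabp6 were below background on all arrays. Fabp2 (intestine), Fabp7 (brain, radial glia) and Fabp9 (testis) were above background on no array, with signals from 5.01 to 145.8.

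Activation of fatty acids to acyl-CoA was covered by few genes. Acsl4, which prefers arachidonic acid and related chains, gave 419, 445 and 438, a mean of 434 ± 13.7, with an SD of 3.16% of the mean. Acsl5, of mitochondria and endoplasmic reticulum, gave 290.5, 141.4 and 165.2 and was 2.05-fold higher in replicate 1 than in replicate 2. Acss1, the mitochondrial acetyl-CoA synthetase, was below its limit in replicate 1 at 87.9 and was at 116.5 and 131.7 in the other pools. The steady Acsl4 value rests on its probe set, since the other gave 294.3, 61.7 and 16.8, below background in replicates 2 and 3. It rests on the scaling too. The range of 1.06-fold became 1.45-fold with arrays brought to 1 median and 1.31-fold with quantile normalization.

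The genes that take long chains into mitochondria and through the cycle did not share 1 order of the pools. Of the 7 above background throughout, 5 were lowest in replicate 1, where 36% of all such genes were lowest. Cpt1a, the rate-limiting carnitine transferase of the outer membrane, gave 2080, 3200 and 3297, a mean of 2859 ± 677. Acadm, the medium-chain dehydrogenase, gave 870, 1451 and 1499, a mean of 1273 ± 350. In both, replicates 2 and 3 lay within a few percent of each other and replicate 1 stood apart below them, by a range of 1.59-fold for Cpt1a and 1.72-fold for Acadm. Replicate 1 was the lowest under the other scalings too, but replicates 2 and 3 were then less close. Cpt1a gave 2406, 2851 and 3274 with quantile normalization, and Acadm 748, 1702 and 1524 with arrays brought to 1 median. Hadhb, the thiolase subunit of the mitochondrial trifunctional protein, gave 885, 1424 and 1137. Hadh, the dehydrogenase for shorter hydroxyacyl chains, gave 355, 583 and 433. Acaa2, the mitochondrial thiolase of the last step, gave 466, 1245 and 828 and had the widest range of these 5 genes, 2.67-fold. Cpt2, on the inner membrane, gave 1267, 1360 and 1091 and was lowest in replicate 3, while its _r_at probe set was below background. Its lowest pool became replicate 1 when the arrays were brought to 1 median.

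Markers of neighbouring cells differed between pools as well. Pigment cell markers, 6 measured and 3 above background on all arrays, have their sums above, with Dct, an enzyme of melanin synthesis, at 765, 5724 and 3742. Among them Tyr, Tyrp1 and Rdh5 were below background in replicate 1. The 7 connective tissue and smooth muscle markers, 4 above background throughout, summed to 1775, 3449 and 4232. Of those 4, 3 were lowest in replicate 2 (Lum, Col1a1 and Col3a1) and Fbln1 in replicate 1, while Dcn, Acta2 and Col1a2 were below background in replicate 1. The 6 measured Müller glia markers, all above background, summed to 12448, 19732 and 17126. Among the glial markers Glul and Vim were highest in replicate 1, at 3557, 2390 and 1378 and at 475, 91.1 and 173.6. The part of these cells in the values of Cpt1a, Acadm, Hadhb, Hadh and Acaa2 was not tested.

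The other dehydrogenases behaved differently. Acad9, which also serves the assembly of respiratory complex I, was high in replicate 1 alone, at 1110 against 311.4 and 313.7, a 3.57-fold range. Acads, the short-chain dehydrogenase, gave 413, 115.2 and 25.5, below background in replicate 3, at least 3.86-fold under replicate 1. The other Acads probe set, an _r_at one, gave 891, 656 and 1540 and was highest in replicate 3, so the order of the pools for Acads depends on the probe set. Acadl, the long-chain enzyme, was near the limits at 183.0, 115.6 and 96.2, the last below background. Both probe sets of Acadvl, the very-long-chain enzyme, were below background in all pools, at 5.01 to 55.1 for the one used.

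**Figure D2:**
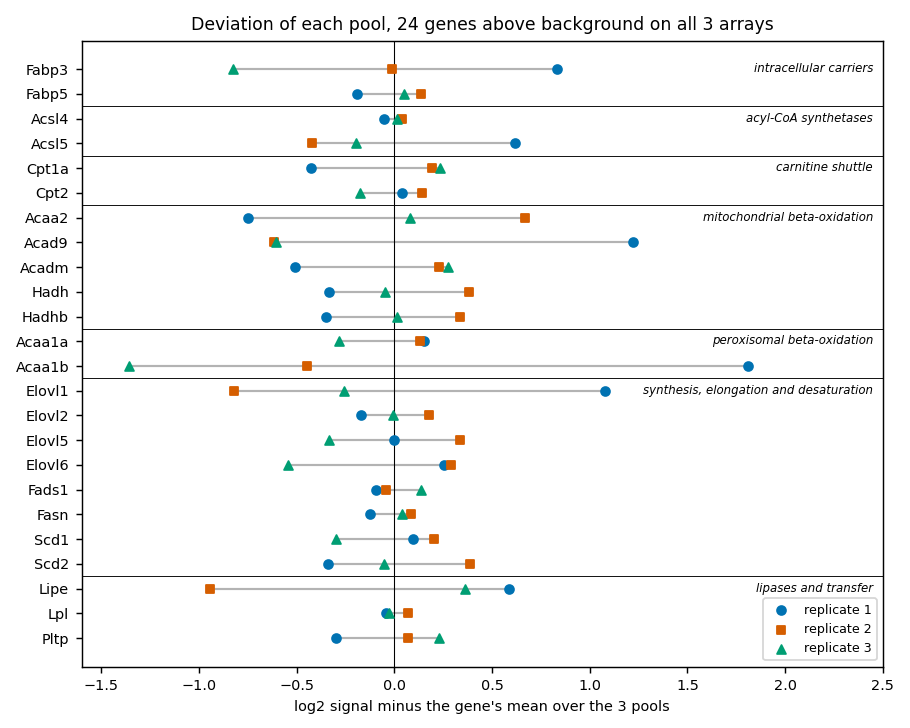
Log2 signal of each pool minus the gene's mean over the 3 pools, for the 24 genes detected in every pool, grouped by role, with grey bars that span the pools. Replicate 1 is the lowest pool for 13 genes, among them Cpt1a, Acadm, Hadhb, Hadh and Acaa2. It is the highest for 7, among them Acaa1b, Acad9, Elovl1, Fabp3 and Acsl5. Acsl4 and Lpl scarcely vary under the scaling used, and vary more with arrays brought to 1 median.

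Promoter sequences are shown for 3 of these genes to set their starts beside the order of the pools: Cpt1a and Acadm, both lowest in replicate 1, and Elovl1, described further on, which was high there. RefSeq promoter windows of build GRCm38.p6, from 250 bases before to 50 after a start, were held for 33 of the 44 genes, in 38 windows. They were searched on both strands for the nuclear receptor half-site AGGTCA, the form read by PPAR and retinoid X receptors among others. It was found in 10 of the 38 windows (26.3%) and in 16.3% of all 32851 windows. Those 10 belong to Cpt1a, Acadm, Acadvl, Apoa2, Apoc2, Apoc4, Elovl1, Elovl6, Fabp1 and Fabp7. These genes did not share an order of the pools: Elovl6 was lowest in replicate 3 and Elovl1 highest in replicate 1. A link between a match and the order of the pools was not tested. A match is a run of letters and not a binding site. The 250 bases before the start follow, 5′ to 3′ on the gene's strand, with the match in capitals, which reads TGACCT where it lies on the other strand. The Cpt1a stretch is chr19:3323051-3323300 (plus strand), with the match from 94 to 89 bases before the start. The Acadm stretch is chr3:153944644-153944893 (minus strand), with the match from 249 to 244 bases before it. The Elovl1 stretch is chr4:118429451-118429700 (plus strand) and belongs to 1 of its 2 windows, with a looser pair of half-sites from 95 to 83 bases before it.
Cpt1a: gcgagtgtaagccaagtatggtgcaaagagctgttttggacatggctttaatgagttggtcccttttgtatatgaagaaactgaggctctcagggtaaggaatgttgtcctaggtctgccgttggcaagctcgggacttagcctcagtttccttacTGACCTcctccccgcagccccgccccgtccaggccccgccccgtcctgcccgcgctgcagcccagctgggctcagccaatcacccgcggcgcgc
Acadm: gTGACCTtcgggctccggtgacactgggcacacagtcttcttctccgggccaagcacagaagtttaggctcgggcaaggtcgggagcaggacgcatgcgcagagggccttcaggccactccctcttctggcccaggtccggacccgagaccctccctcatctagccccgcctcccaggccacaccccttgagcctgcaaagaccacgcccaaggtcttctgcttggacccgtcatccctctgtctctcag
Elovl1: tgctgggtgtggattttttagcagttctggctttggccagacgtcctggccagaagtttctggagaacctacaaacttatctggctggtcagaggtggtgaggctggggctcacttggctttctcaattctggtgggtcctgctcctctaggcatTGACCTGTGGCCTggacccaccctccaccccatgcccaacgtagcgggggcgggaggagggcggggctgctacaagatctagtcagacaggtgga

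The spaced pair of half-sites, AGGTCANAGGTCA, was in none of the 38 windows and in 0.0396% of all windows. A looser pair with the fourth base of each site free, AGGNCANAGGNCA, was in the windows of Elovl1, Fabp1 and Apoc2 and in 0.381% of all windows, and each of those 3 matches also holds a half-site. The sterol element TCACNCCAC was found for Fabp6 alone (1.24% of all windows) and the E-box CACGTG for Apoa5, Elovl5 and Lipe (7.15% of all windows). Of the 3 genes with the looser pair, Elovl1 and Apoc2 were highest in replicate 1. Fabp1 was above background in replicate 3 alone, at 133.6, which is under the limit of 160.3 in replicate 1. Its order of the pools is therefore not read.

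The peroxisomal thiolases are near-identical copies, and their probe sets may take signal from each other. Acaa1a gave 1667, 1646 and 1231, a mean of 1515 ± 246. Acaa1b gave 1903, 398 and 212, the widest range of all members above background, 8.98-fold. The other Acaa1b probe set gave 460.2, 470.3 and 492.7, a 1.07-fold range. The Acaa1b difference was thus seen at 1 of its probe sets only.

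Genes that make and remodel fatty acids had ranges from 1.16-fold to 3.73-fold, and 1 of 8, Elovl1, passed 2-fold. Fasn, the fatty acid synthase, gave 1018, 1177 and 1141, a mean of 1112 ± 83.2, and its pools lay within 1.16-fold. The Fasn range was 1.58-fold with arrays brought to 1 median and 1.11-fold with quantile normalization. Fads1, a desaturase on the way to arachidonic and docosahexaenoic acid, gave 884, 915 and 1037, a mean of 945 ± 81.0. The elongases of polyunsaturated chains were likewise present in all pools, with 312.4, 396.6 and 349.9 for Elovl2 and 916, 1154 and 727 for Elovl5. Elovl2 was measured by an _r_at probe set alone.

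Desaturases and elongases of saturated and monounsaturated chains followed no common order of pools. Scd2, the stearoyl-CoA desaturase prominent in brain, gave 3669, 6076 and 4479, a mean of 4741 ± 1225, highest in replicate 2. Its other probe set, an _f_at one, was highest in replicate 3 instead, at 2005, 2507 and 3741. Scd1 gave 392, 423 and 298, and 381, 410 and 299 at a _g_at probe set, the same order of pools, while an _r_at one was below background. The Scd genes are close relatives, so their probe sets may share signal. Elovl6, which extends palmitate, gave 896, 920 and 515, but 377.0, 328.8 and 344.6 at its other probe set. Elovl1, which makes very long saturated chains, gave 706, 189 and 279, with replicate 1 at 3.73 times replicate 2. Elovl3, known from skin and brown fat, was below background on every array (21.1 to 50.3).

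**Figure D3:**
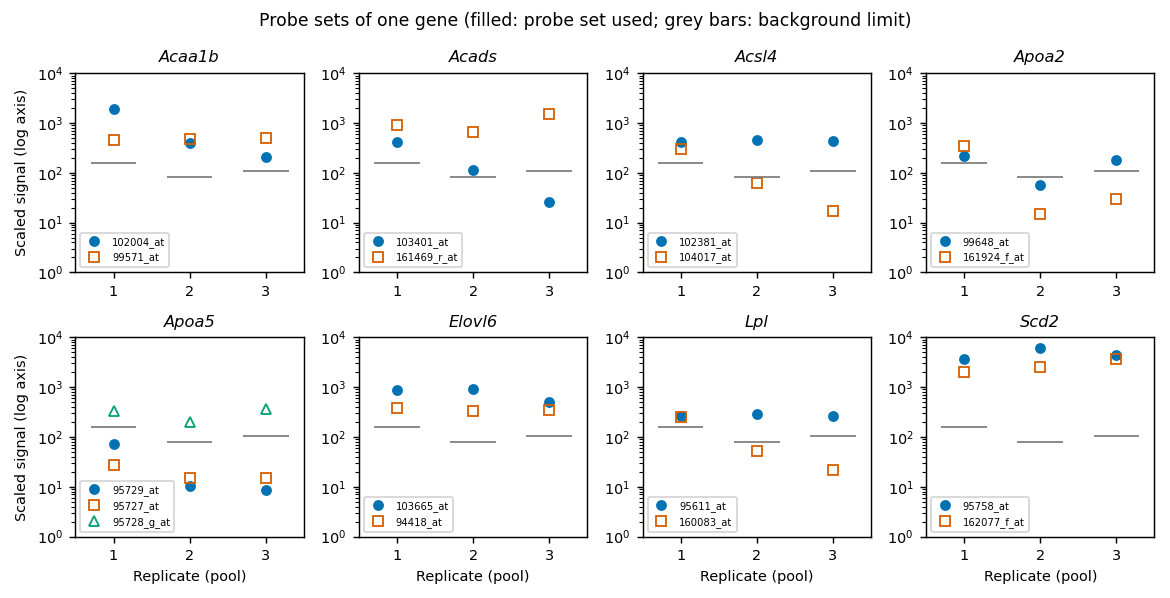
Signal of each probe set (log axis) in replicates 1 to 3 for 8 genes with several probe sets, where filled symbols mark the one used and grey bars the background limit of each array. For each of the 8 genes the probe sets give different orders of the pools or lie on different sides of the limit, as for Acsl4 in replicate 3 (438 against 16.8).

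Enzymes that handle lipid outside the cell or in stores were detected in each pool. Lpl, lipoprotein lipase, gave 265, 287 and 268, a mean of 273 ± 11.9, although the other Lpl probe set gave 257.8, 51.9 and 21.4. The Lpl range of 1.08-fold became 1.48-fold with arrays brought to 1 median and 1.46-fold with quantile normalization. Pltp, the phospholipid transfer protein, gave 590, 762 and 849, a mean of 734 ± 132. Lipe, hormone-sensitive lipase, gave 299.9, 103.9 and 257.0 and was lowest in replicate 2, with a 2.89-fold range. Its highest pool was replicate 3 when the arrays were brought to 1 median or quantile normalized, so for Lipe only the low replicate 2 was shared by those settings.

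At the probe sets used, apolipoproteins of types A to D were near or below background, and none was above it on all 3 arrays. Apob, the structural protein of very-low-density lipoprotein, was above its limit in replicate 1 alone, at 347 against 59.2 and 92.9, at least 4.30-fold over replicate 2. Apoa2, of high-density lipoprotein, gave 217.6, 56.3 and 182.9 at one probe set and 352.0, 14.8 and 29.9 at another. Apoc2, the cofactor of lipoprotein lipase, gave 216.5, 116.7 and 63.9, and Apoc1 gave 129.1, 102.4 and 156.5, below background in replicates 3 and 1 respectively. Apoa1, Apoa4, Apoa5, Apoc4 and Apod were above it on no array, at 8.70 to 144.0, although a _g_at probe set of Apoa5 gave 338.3, 201.9 and 363.9. Among the 5 measured liver markers, Alb gave 351, 31.9 and 44.8, and Ahsg and Fgb were below background on all arrays. Hp was highest in replicate 1, at 686, 276 and 335, and Ttr in replicate 2, at 609, 891 and 533. The liver list summed to 1786, 1223 and 945, with 2 genes above background throughout. Its part in the Apob and Apoa2 signals of replicate 1 was not tested.

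The signals of low genes leaned to replicate 1 on the array as a whole. Of the 20 members below background on 1 array or more, 11 had their highest signal in replicate 1, against 52.2% of the 3245 such genes. Of the 24 members detected in every pool, 7 were highest in replicate 1 (42.6% of all 5006 such genes), 13 in replicate 2 (33% of all such genes) and 4 in replicate 3 (24.4%). The lowest pool was replicate 1 for 13 members (36% of all such genes), replicate 2 for 4 (32.4%) and replicate 3 for 7 (31.6%). Replicate 2 was thus the most frequent highest pool and replicate 1 the most frequent lowest. Scaling to 1 median moved the median gene by -0.22, 0.23 and 0.02 on the log2 scale in replicates 1, 2 and 3. Replicate 2 was then highest for 18 of the 24 members and for 55.2% of all such genes, and replicate 1 for 5 members and 23.8%. When a gene's probe sets were averaged, 7 of 23 members were highest in replicate 2 and 11 in replicate 1. The share over all genes is not given for averaged probe sets.

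The members varied between pools about as much as other genes. Their median SD was 0.35 on the log2 scale, against 0.36 for all 5006 genes above background. A range of 2-fold or more was reached by 7 of 24 members, Acaa1b, Elovl1, Acad9, Fabp3, Lipe, Acaa2 and Acsl5, against 28.3% of all such genes. Replicate 1 was the highest pool in 6 of the 7, against 58.5% of all 1418 genes with such a range, and the lowest in Acaa2. Without replicate 1, 1 of 26 members passed 2-fold, which was Lipe, and without replicate 2, 4 of 25. With arrays brought to 1 median 12 of 24 passed. Shares over all genes are not given for these settings, so these counts are not read as particular to the members. Spread depended on level: the median SD was 0.34 for the 14 members at or above a mean signal of 633 and 0.45 for the 10 below, against 0.32 and 0.43 for all genes.

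**Figure D4:**
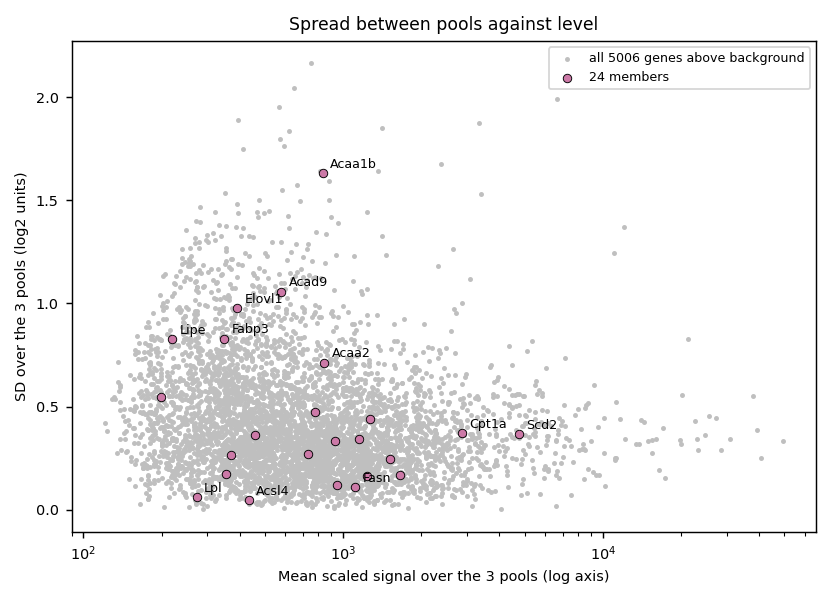
SD over the 3 pools (log2 units) against mean scaled signal (log axis) for the 5006 genes detected in every pool, with the 24 members as large points. The members are scattered through the cloud of other genes, from Acsl4 at 0.05 to Acaa1b at 1.63.

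For 14 members more than 1 probe set was measured. In 6 of the 14 the probe sets fell on different sides of detection in every pool, compared with 46.7% of the 2073 genes of this kind. Of the 4 members with several probe sets above background throughout, 3 differed in which pool was highest, against 66.5% of 794 genes. Single-gene differences between pools in the groups above are therefore given with each further probe set that goes against them.

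Other genes of the pathway came from lists chosen by function. Of 61 measured, 42 were detected in every pool, against 60.7% of all genes, and 9 in none, against 15.7%. The remaining oxidation and electron transfer genes counted 15 of 19. Of these 15, 3 were lowest in replicate 1 (36% of all genes detected in every pool) and 9 in replicate 2 (32.4%). Scp2, a peroxisomal thiolase and lipid carrier, was lowest in replicate 1, at 568, 1222 and 890. Echs1, the hydratase of the cycle, was below background in replicate 1 at 104.6 and gave 469 and 398 in the other pools, and Hsd17b10, a mitochondrial dehydrogenase, gave 118.7, 396 and 412. In contrast the carnitine enzyme Crat, the carnitine transporter Slc22a5 and the flavoprotein subunit Etfb were highest in replicate 1, at 484.1, 296.2 and 327.8, at 451, 214.3 and 244.1, and at 645, 506 and 518.

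**Figure D5:**
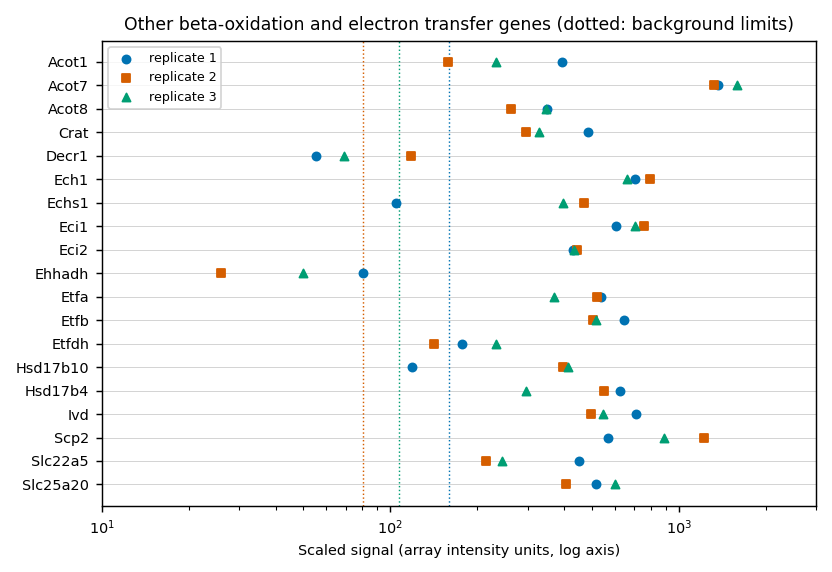
Scaled signal (log axis) of 19 further genes of beta-oxidation and electron transfer in each pool, with the background limit of each array dotted. Echs1 and Hsd17b10 lie below the limit of 160.3 in replicate 1 and at 396 or more in the other pools, while Crat, Slc22a5 and Etfb are highest in replicate 1.

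Of 10 measured regulators 3 were above background throughout: Ppara, the receptor that drives oxidation genes, at 336, 385 and 499, Rxrb, a retinoid X receptor, at 1774, 1790 and 1773, and Srebf1, which drives synthesis genes, at 837, 1481 and 1563. Ppara and Srebf1 were lowest in replicate 1. Some other regulators were highest there and below background in 1 or 2 pools: Ppargc1a, a coactivator, at 590, 122.8 and 103.7, Nr1h3, a sterol receptor, at 372, 72.2 and 27.2, and Hnf4a, a liver-enriched receptor, at 330, 25.1 and 44.3. Rxra, a retinoid X receptor, was instead lowest and below background in replicate 1, at 156.5, 477 and 755. Ppard was above background in replicate 2 alone, at 47.9, 131.6 and 15.8. Pparg, the regulator of fat cells, was below background on all arrays (14.2, 5.01 and 8.50). All 4 genes of cytosolic acetyl-CoA and malonyl-CoA, all 7 of triglyceride storage, 7 of 10 of uptake and receptors, 5 of 10 other carriers and Oxct1, the 1 measured gene of ketone body use, were above background on all arrays. The fatty acid transporter Slc27a1 gave 1185, 570 and 414, the same order of pools as Fabp3, and Cd36 was below background throughout (29.9, 20.1 and 21.7).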

How the data were processed

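The table holds linear intensities for 12488 probe sets, as deposited by the authors. The trimmed mean of each array was 500.2 to 500.3 before any step here. The software and scaling behind the intensities are not given in the sources used here. The 66 control probe sets were set aside, and 10833 of 12422 others had 1 symbol in the platform annotation (396 several, 1193 none). All 44 members matched the GRCm38.p6 gene table by gene ID with the same symbol. Arrays were scaled to a common trimmed mean (2% removed at each end), and log2 was taken above a floor at the 5th percentile. Background limits came from 19 bacterial and yeast controls.

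Each sample is a pool of retinas per the labels, numbered here in accession order. The labels do not say that no animal served more than 1 pool, so the spread between samples may be partly technical. With 1 group there was no contrast and no test, and all statements are counts, means, SDs and ranges. The members and gene lists were chosen with earlier results of these data known. Members were named by role, with values where above background on 1 array or more, and other probe sets were given where they disagreed. Alternatives covered the limit, the filter, scaling, probe set choice, fold threshold, pseudocount and each replicate left out. The calculations were tested on simulated data. Python 3.11.15, numpy 2.4.6, pandas 2.3.3 and matplotlib 3.10.9 were used.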

Additional observations from a re-analysis of the deposited data

How the results depend on the processing

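The count of 24 members above background on all arrays stayed between 23 and 35 under every alternative that gave a value, the last with the median control as limit, where 5 apolipoproteins and 5 carriers passed in place of 0 and 2. With that limit 7081 of all 8251 genes passed. The count of members above background has no value without a filter or with detection on 1 array. The count of 7 members with a 2-fold range became 14 with the median control as limit, 12 with arrays brought to 1 median, 21 without a filter, 14 with detection on 1 array, 4 at 3-fold and 14 at 1.5-fold, and lay between 1 and 7 with a replicate left out. The median SD of 0.35 became 0.50 with arrays brought to 1 median and 0.49 without a filter, and 0.23 to 0.47 with a replicate left out. The 7 members highest in replicate 1 became 14 with the median control, 18 without a filter, 13 with detection on 1 array, 11 with averaged probe sets, and 10 to 12 with a replicate left out. The 13 highest in replicate 2 became 7 with averaged probe sets, and 16 to 17 with a replicate left out. The 4 highest in replicate 3 became 8 with the median control, 1 with arrays brought to 1 median, 12 without a filter, 8 with detection on 1 array, and 10 to 13 with a replicate left out. With the median control as limit, 3041 of the 7081 genes above it had a 2-fold range. Of those 7081, 3133 were highest in replicate 1 and 1865 in replicate 3. For the other settings of this section no share over all genes is given here, so shifts in members are not read as particular to them. With fewer arrays or more genes the count itself changes by construction, and otherwise the cause was not tested. Of 312 ranges of single members 45 moved. No paired analysis was possible because the samples form 1 group. Signals near the limits of 80.7 to 160.3 cannot show a difference between pools.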
